A study of Mus musculus with 24 samples.

Results

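The transcripts of 10 genes that carry amino acids and small peptides across the wall of the small intestine were followed in the ileum of C57BL/6N mice: Slc15a1, Slc6a19, Slc7a9, Slc3a1, Slc3a2, Slc7a7, Slc7a8, Slc1a1, Slc1a5 and Slc36a1. They were chosen by symbol as main epithelial carriers of these nutrients, and all 10 were found among the 55536 genes of the count table and among the 14076 genes that passed the filter on low counts. One library was made from each of 24 mice in 4 groups of 6 (3 males and 3 females): control diet with 10 kcal% fat (CD), the same diet with metformin (CDmetf), high-fat diet with 60 kcal% fat (HFD) and that diet with metformin (HFDmetf). The mice were 4 to 5 weeks old at the start, were fed the diet for 20 weeks, and the CDmetf and HFDmetf mice then drank metformin, a glucose-lowering biguanide, at 50 mg/kg/day for 10 weeks. No group carried a transgene or a deleted gene. One animal was drawn from each cage. Levels are given as read counts scaled to the library total (CPM) after scaling with the trimmed mean of M values (TMM).

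Dietary protein reaches enterocytes, the absorptive cells of the intestinal epithelium, as free amino acids and as di- and tripeptides. Carriers in the brush border, the surface that faces the gut lumen, take these up with the help of sodium, proton or exchange gradients, and carriers in the basolateral membrane hand amino acids on to the blood. Some carriers work as heteromers, in which a heavy chain brings a transporting light chain to the membrane. A lower level in a bulk sample can come from fewer enterocytes or from less transcript per enterocyte, and these cannot be told apart.

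The libraries held 1829690 to 40606442 reads on genes (median 3467308), and every transporter had at least 51 reads in every library. CD M3 (control diet, male, replicate 3) stood apart, with 85.4% of its reads on 10 genes and a TMM factor of 0.189, and HFDmetf F2 held 36.6% of its reads on 10 genes against at most 18.97% in the remaining libraries. HFD M2 and HFD F2 went against their labelled sex by Xist and Y-linked reads, and they were kept as labelled. Summed over 12 general epithelial markers, such as Epcam and Cdh1, the levels ran from 7849 CPM in HFDmetf F2 to 15052 CPM in CD M2. The 6 ileal markers, among them the bile acid carriers Slc10a2 and Fabp6, were present in every group but not at like levels in every library. Their sum ran from 171 CPM in HFD M3 to 4896 CPM in CD M2. In HFD M3, Fabp6 was at 0.817 CPM and Slc10a2 at 4.90 CPM, and Slc51a (132 CPM) made up most of the sum. Fabp6 was also low in CD M1 (32.6 CPM) and CDmetf F1 (35.3 CPM), against 2645 CPM in CD M2. The 8 markers of the more proximal intestine, such as Gata4, Lct and Fabp1, ran from 212 CPM in CDmetf M2 to 12090 CPM in HFD M3, where Apoa4 (6531 CPM) and Lct (2882 CPM) made up most of the sum. Not all 8 went the same way: Slc40a1 was at 39.9 CPM in CD M2 and 7.70 CPM in CD M1, where Gata4 was at 1.33 and 99.3 CPM, and Cybrd1 was at 15.3 CPM in CDmetf M3 and 6.13 CPM in HFD M3. Some values without CD M3, HFD M2 and HFD F2 are given beside the comparisons, and the signs that changed without them are listed at the end.

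Per kilobase of exon, the 10 transcripts spanned a wide range of levels in the same tissue. Slc15a1, the proton-driven peptide carrier of the brush border, had the highest median over the 24 libraries (185 CPM per kb), followed by Slc6a19, the main sodium-driven carrier of neutral amino acids (112 CPM per kb), and Slc3a1 (97.5 CPM per kb). Slc3a2 (61.4 CPM per kb), Slc7a9 (59.7 CPM per kb), Slc7a7 (50.3 CPM per kb) and Slc7a8 (43.5 CPM per kb) formed the middle of the order. Slc1a5 (12.3 CPM per kb), Slc36a1 (10.4 CPM per kb) and Slc1a1 (7.66 CPM per kb) were the least abundant. Neighbours in this order were not always separated. Slc15a1 was above Slc6a19 in 19 of 24 libraries and Slc3a1 above Slc3a2 in 21, whereas Slc7a7 was above Slc7a8 in 14 and Slc1a5 above Slc36a1 in 12.

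Slc15a1 (ENSMUSG00000025557, GRCm38 chr14:121459621-121505252, minus strand) was the most variable of the transporters. It ranged from 306 CPM to 1949 CPM in CD (median 1067), from 254 to 1287 CPM in CDmetf (median 808), from 621 to 1611 CPM in HFD (median 1083) and from 86.2 to 1545 CPM in HFDmetf (median 663). The spread within HFDmetf was 17.9-fold, with HFDmetf M1 at 86.2 CPM and HFDmetf F2 at 98.4 CPM below every other library of the study. The spread in HFD was 2.59-fold. Over all 24 libraries the levels differed by 22.6-fold. The standard deviation of log2 CPM (1.26) exceeded that of 98.9% of the genes with a median of at least 10 CPM.

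Slc6a19 (ENSMUSG00000021565, chr13:73679745-73704865, minus strand) followed a similar course at lower levels. It ranged from 148 to 987 CPM in CD (median 680), from 304 to 790 CPM in CDmetf (median 519), from 501 to 893 CPM in HFD (median 584) and from 116 to 927 CPM in HFDmetf (median 437). The lowest 3 libraries were HFDmetf F2 (116 CPM), HFDmetf M1 (132 CPM) and CD M3 (148 CPM), and the HFD group again had the narrowest range. Slc6a20a, a carrier of proline and other imino acids, ranged from 78.8 to 218 CPM (median 144).

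Slc3a1 and Slc7a9 encode the heavy and the light chain of the brush border exchanger of cystine and basic amino acids, the one affected in cystinuria. Slc3a1 (ENSMUSG00000024131, chr17:85028376-85064236, plus strand) ranged from 73.7 to 281 CPM in CD (median 268), from 156 to 294 CPM in CDmetf (median 215), from 151 to 279 CPM in HFD (median 235) and from 47.8 to 304 CPM in HFDmetf (median 161). The other 5 CD libraries lay between 215 and 281 CPM above CD M3 at 73.7 CPM. Slc7a9 (ENSMUSG00000030492, chr7:35448796-35466036, plus strand) ranged from 59.1 to 235 CPM in CD (median 184), from 107 to 193 CPM in CDmetf (median 150), from 119 to 214 CPM in HFD (median 155) and from 51.8 to 177 CPM in HFDmetf (median 122). The ratio of the heavy to the light chain, per kilobase of exon, lay between 1.09 and 2.47 over all libraries (median 1.603), with group medians of 1.603 in CD, 1.72 in CDmetf, 1.57 in HFD and 1.49 in HFDmetf. The Slc3a1 count is uncertain, because 601 bases of its exons lie opposite Prepl, which had 36.9 to 112 CPM, and the strand used in counting is not given in the sources used here.

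The promoters of this pair are shown because both chains varied together (Spearman's rho 0.813 over 24 libraries) and both hold short motifs of factors known from intestinal epithelium. They are RefSeq sequences on GRCm38.p6 from 250 bases before to 50 bases after the start site, and capitals mark matches to 4 motifs searched on both strands, which do not overlap in these windows. The letters searched for GATA factors were AGATAA. Those for HNF4 were CAAAGTCCA, those for an HNF1 half-site were GTTAAT, and those for CDX factors were TTTATG. These motifs were chosen with the levels known.
Slc3a1 promoter, chr17:85028097-85028396, plus strand: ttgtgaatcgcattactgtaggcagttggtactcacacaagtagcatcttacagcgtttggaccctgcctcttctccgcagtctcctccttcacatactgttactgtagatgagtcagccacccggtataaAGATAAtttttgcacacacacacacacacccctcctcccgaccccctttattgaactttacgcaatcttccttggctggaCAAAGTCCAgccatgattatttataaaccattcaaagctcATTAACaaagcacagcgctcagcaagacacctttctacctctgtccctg
Slc7a9 promoter (the first start site listed), chr7:35448842-35449141, plus strand: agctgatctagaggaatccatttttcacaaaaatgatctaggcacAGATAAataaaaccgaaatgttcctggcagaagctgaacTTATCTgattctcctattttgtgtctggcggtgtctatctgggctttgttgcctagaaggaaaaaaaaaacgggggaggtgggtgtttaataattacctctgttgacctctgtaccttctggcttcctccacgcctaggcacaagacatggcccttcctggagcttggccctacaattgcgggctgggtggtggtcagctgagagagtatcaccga
The Slc3a1 window held the GATA letters at -119, the HNF4 letters at -39 and the HNF1 half-site on the opposite strand at +2, counted from the start site. The Slc7a9 window held the GATA letters at -205 and, on the opposite strand, at -166. Of 32851 promoters of the same length, 0.475% held the HNF4 letters, 7.1% the HNF1 half-site, 11.2% the GATA letters and 11.9% the CDX letters. Windows were found for 9 of the 10 genes, some with several start sites. The window of the other Slc7a9 start site held none of the motifs. Among the other genes, Slc7a7 held the GATA letters at -190 and -213 from different start sites, which are the same stretch of bases. It held the HNF1 half-site at -86 from another start site, and Slc36a1 held the HNF1 half-site at -243. The windows of Slc15a1, Slc6a19, Slc3a2, Slc7a8 and Slc1a1 held none of the 4 motifs. A match describes the letters and is not a measured binding site.

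At the basolateral membrane, Slc3a2 encodes the heavy chain shared by several exchangers, Slc7a7 the light chain that exports basic amino acids and Slc7a8 a light chain for neutral amino acids. Slc3a2 (ENSMUSG00000010095, chr19:8706882-8723369, minus strand) ranged from 99.1 CPM in HFDmetf M1 to 368 CPM in CD M1, with group medians of 213 CPM in CD, 153 CPM in CDmetf, 235 CPM in HFD and 217 CPM in HFDmetf. Slc7a7 (ENSMUSG00000000958, chr14:54369442-54417780, minus strand) ranged from 52.9 CPM in HFDmetf F2 to 230 CPM in HFD F1, with group medians of 175, 137, 193 and 147 CPM in the same order. Its count is uncertain over 232 exon bases that lie opposite Oxa1l, which had 34.8 to 67.5 CPM. Both transcripts had overlapping values in all 4 groups.

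Slc7a8 (ENSMUSG00000022180, chr14:54722209-54781946, minus strand) was far more variable than the other chains of this membrane. It ranged from 77.4 to 451 CPM in CD (median 269), from 41.8 to 370 CPM in CDmetf (median 95.4), from 159 to 397 CPM in HFD (median 245) and from 47.1 to 421 CPM in HFDmetf (median 225). In CDmetf, 4 libraries lay at 41.8 to 107 CPM and the other two, CDmetf F3 at 236 CPM and CDmetf F1 at 370 CPM, were well above them. Per kilobase, Slc3a2 amounted to 0.484 to 1.05 times the sum of these 2 light chains (median 0.657).

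The remaining carriers were less abundant. Slc1a1 (ENSMUSG00000024935, chr19:28835049-28913960, plus strand), the brush border carrier of glutamate and aspartate, ranged from 41.5 to 107 CPM in CD (median 73.3), from 40.5 to 121 CPM in CDmetf (median 77.3), from 20.8 to 95.2 CPM in HFD (median 52.6) and from 47.1 to 96.6 CPM in HFDmetf (median 58.2). It shares 2631 exon bases with 4430402I18Rik on the opposite strand, a gene with at most 2.32 CPM. Slc36a1 (ENSMUSG00000020261, chr11:55204350-55236330, plus strand), a proton-driven carrier of glycine, alanine and proline, had group medians of 64.3 CPM in CD, 35.7 CPM in CDmetf, 91.5 CPM in HFD and 67.4 CPM in HFDmetf. Its highest values were 246 CPM in CD M1 and 210 CPM in HFD M3, and its lowest was 28.2 CPM in CDmetf M3.

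Slc1a5 (ENSMUSG00000001918, chr7:16781340-16798274, plus strand), a sodium-dependent exchanger of glutamine and other neutral amino acids that many dividing cells use, was the least variable of the 10. It ranged from 41.1 to 77.1 CPM in CD (median 60.5), from 35.3 to 79.4 CPM in CDmetf (median 50.2), from 40.3 to 64.8 CPM in HFD (median 44.7) and from 35.4 to 105 CPM in HFDmetf (median 65.3). Its highest libraries, HFDmetf F2 at 105 CPM and HFDmetf M1 at 97.9 CPM, were the lowest of the study for Slc15a1 and Slc6a19.

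**Figure D1:**
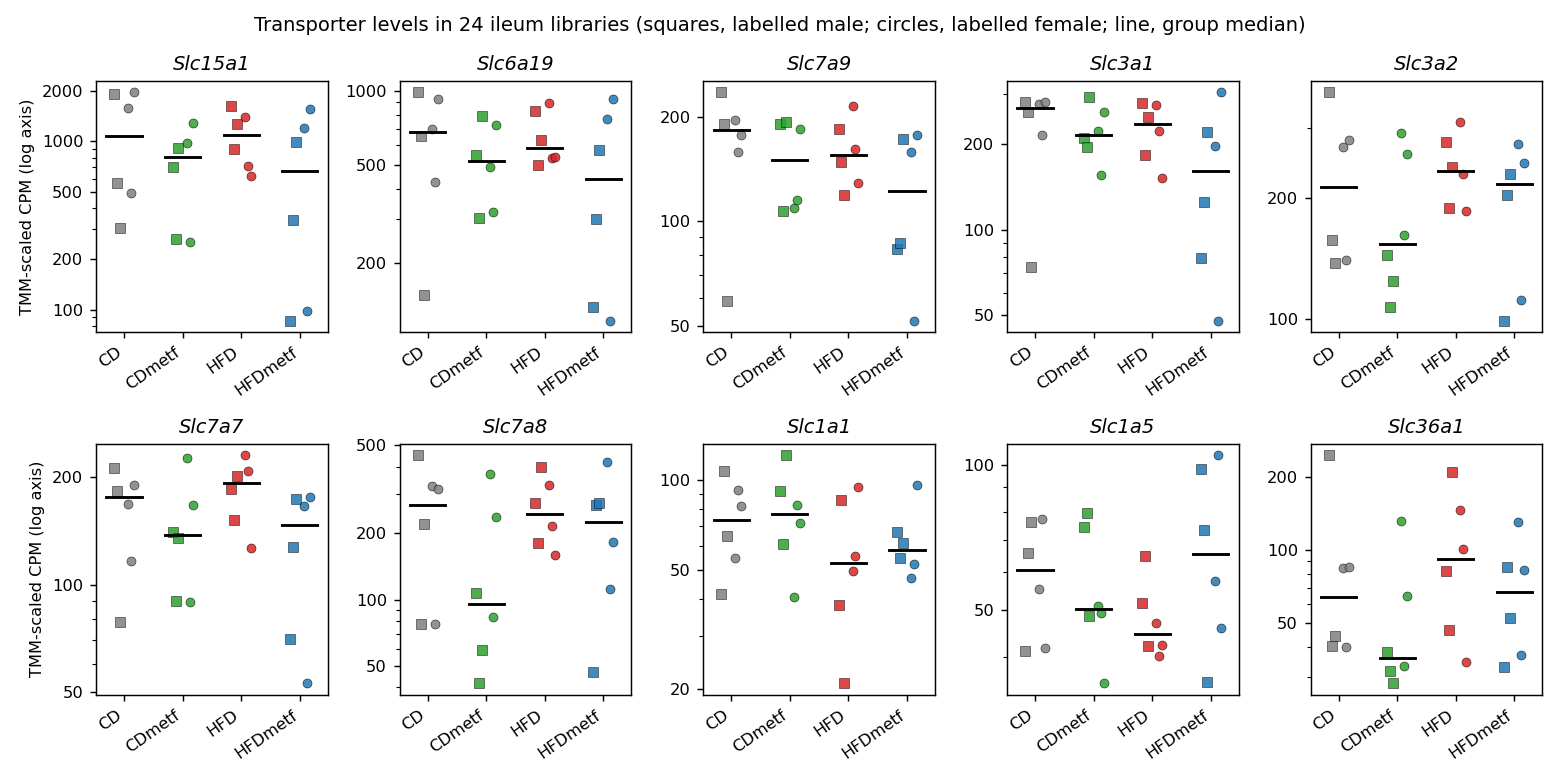
TMM-scaled CPM on log axes (y) of each transporter in the 4 groups (x), with 1 point per library, squares for labelled males, circles for labelled females and a line at the group median. The groups overlap for every transporter, and 2 HFDmetf libraries lie lowest for Slc15a1 (86.2 and 98.4 CPM) and highest for Slc1a5 (97.9 and 105 CPM).

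The first comparison asked what the diet alone did (HFD vs. CD). None of the 10 transporters passed a false discovery rate of 0.05 (Benjamini-Hochberg over all genes) in edgeR's quasi-likelihood test, which fitted group, sex and replicate number to all 24 libraries, and 0 of them had an unadjusted p under 0.05, against 4.63% of all genes tested (652 of 14076, with 2.59% higher and 2.04% lower). Log2 fold changes ran from -0.32 (Slc1a1, standard error 0.283, 95% interval -0.91 to 0.27, adjusted p = 1.00) to 0.36 (Slc36a1, SE 0.453, 95% interval -0.58 to 1.30). Both moved with HFD M3, without which Slc1a1 was at -0.12 and Slc36a1 at -0.18, and without CD M1 Slc36a1 was at 0.84. Of the 10, 6 were above 0 and 4 below, with a median of 0.067 against -0.0047 over all genes. For Slc15a1 the difference was 0.13 with a 95% interval of -0.90 to 1.17. Leaving out CD M3, HFD M2 and HFD F2 turned it to -0.60. Between the same groups, 9 of 9 smooth muscle markers were below 0 in HFD vs. CD (median -0.42) and 6 of 8 proximal markers above 0 (median 0.76). The 2 proximal markers at an unadjusted p under 0.05 were Fabp1 and Apoa4, and the study lists both among genes that differed between the diets. All 10 B cell markers were above 0, 8 of them at an unadjusted p under 0.05 (median 1.76). Of the adipocyte markers 6 of 7 were below 0 (median -2.61), as were 4 of 5 pancreatic acinar cell markers tested (median -3.07). Their part in the transporters' values was not tested. Neither limma-voom nor DESeq2 called any of the 10 at that rate in this or the later comparisons, and over the whole table edgeR called 0 genes in each, and DESeq2 0 to 13.

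The same diets were compared under metformin (HFDmetf vs. CDmetf). No transporter passed the false discovery rate, and 0 of 10 had an unadjusted p under 0.05, against 7.87% of all genes (3.83% higher and 4.04% lower). Slc7a8 had the largest of the 10 differences, with group medians of 95.4 CPM in CDmetf and 225 CPM in HFDmetf. Its log2 fold change was 0.83 (SE 0.469, 95% interval -0.15 to 1.80, adjusted p = 0.661 in edgeR). Slc7a8 was higher in HFDmetf in 4 of 6 animals matched by labelled sex and replicate number, though the labels do not say that the numbers pair the animals. The log2 fold change was 0.45 without HFDmetf M2 and 1.09 without CDmetf F1. With the proximal marker score as a covariate, chosen after the data were seen, the Slc7a8 difference was 0.32. That score includes Fabp1 and Apoa4, which the study lists among genes that differed between the diets. Slc3a1 was at -0.50 (SE 0.330, adjusted p = 0.707 in edgeR), lower in 5 of 6 matched animals, and at -0.32 without HFDmetf F2. The median over the 10 was -0.10, against 0.033 over all genes. Between these groups all 10 B cell markers were below 0 at an unadjusted p under 0.05 (median -2.48). Of the epithelial markers 11 of 12 were below 0 (median -0.13, with Epcam at an unadjusted p under 0.05), as were 5 of 6 ileal markers (median -0.53, with Slc10a2 at that threshold). Above 0 were 6 of 8 proximal markers (median 0.74) and all 5 acinar cell markers tested (median 2.42). Their part in the transporters' values was not tested.

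Metformin on the high-fat diet (HFDmetf vs. HFD) was the third comparison, and none of the 10 passed the false discovery rate (lowest adjusted p 0.640 in edgeR). Of the 10 log2 fold changes, 8 were below 0 and the median was -0.48, against 0.026 over all genes. One transporter, Slc1a5, had an unadjusted p under 0.05 and was higher, against 3.79% of all genes that were higher at that threshold, 2.82% lower and 6.61% in either direction. Its log2 fold change was 0.48 (SE 0.200, 95% interval 0.06 to 0.89, adjusted p = 0.640 in edgeR), and it was higher in 5 of 6 matched animals. The groups overlapped, since HFDmetf M3 had the lowest Slc1a5 of both groups (35.4 CPM). The difference was 0.31 without HFDmetf F2 and 0.32 without CD M3, HFD M2 and HFD F2.

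The lower transporters in this comparison were led by Slc15a1, at -0.94 (SE 0.512, 95% interval -2.005 to 0.12, adjusted p = 0.640 in edgeR), and Slc6a19, at -0.61 (SE 0.413, adjusted p = 0.644 in edgeR). Slc3a1 was at -0.55 (SE 0.334), Slc7a7 at -0.54 (SE 0.276, 95% interval -1.11 to 0.03) and Slc7a9 at -0.42 (SE 0.290). Slc15a1, Slc6a19, Slc3a1 and Slc7a7 were each lower in 5 of 6 matched animals. The matches of HFD M2 and HFD F2 used sex labels that their Xist and Y-linked reads went against, and the pairing is not established. Without CD M3, HFD M2 and HFD F2, Slc15a1 was at -0.50, and without HFDmetf M1 Slc6a19 was at -0.38. Slc3a2 was at -0.29, Slc7a8 at -0.21 and Slc36a1 at -0.53, with intervals that held 0, and Slc1a1 was at 0.15. Without HFD M3, Slc36a1 was at -0.028 and Slc1a1 at -0.077. With limma-voom, Slc15a1 (-1.56), Slc6a19 (-0.99), Slc3a1 (-0.77) and Slc7a7 (-0.68) were also at an unadjusted p under 0.05, which made 5 of 10 with Slc1a5 (0.43) against 8.1% of all genes, and with DESeq2 Slc15a1 (-0.96), Slc7a7 and Slc1a5 were, against 7.98%. The lowest adjusted p of the 10 in limma-voom was 0.588.

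The count of transporters with an unadjusted p under 0.05 in edgeR depended on single libraries. It was 4 without CD M3 or without HFDmetf F3, 3 without HFD F3, 2 without HFDmetf M2 or HFDmetf M3 and 0 without HFD M1, HFD F2, HFDmetf M1 or HFDmetf F2, and 0 without HFD M2 and HFD F2 together. The share of all genes at that threshold moved as well, from 6.61% in the reported fit to 8.98% without CD M3. It was 2.26% without HFD M2 and HFD F2 together.

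Other markers moved between the same 2 groups, and the values stand here beside the transporters. The epithelial sum had a median of 13274 CPM in HFD (11732 to 14933) and 11729 CPM in HFDmetf (7849 to 13915), with 9 of 12 markers below 0. The smooth muscle sum over 10 markers had a median of 1647 CPM in HFD (1416 to 2457) and 2324 CPM in HFDmetf (1481 to 3570), with 9 of 9 tested markers above 0, and no marker of the list was at 0 in all libraries. The 10 markers of dividing cells, a list added after the data were seen, were all above 0, with median sums of 481 and 695 CPM. All 7 adipocyte markers were above 0 (median log2 fold change 1.44), with sums of 23.8 to 184 CPM in HFD and 40.2 to 480 CPM in HFDmetf. Of 5 acinar cell markers tested, 4 were above 0 (median 3.12). The summed B cell markers lay at 14.3 to 332 CPM in HFD and 8.98 to 30.1 CPM in HFDmetf, with 10 of 10 below 0 and 9 of them at an unadjusted p under 0.05 (median -2.23). The 6 stem cell markers, also added later, had median sums of 790 and 871 CPM. Adding the epithelial score as a covariate gave -0.58 for Slc15a1 and 0.30 for Slc1a5, and adding the smooth muscle score gave -0.58 and 0.19, none with an unadjusted p under 0.05. Which of these, if any, accounts for the transporters was not tested.

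Metformin on the control diet (CDmetf vs. CD) left all 10 transporters above a false discovery rate of 0.05, with 0 at an unadjusted p under 0.05 against 5.14% of all genes (2.74% higher and 2.41% lower). Of the 10 log2 fold changes, 9 were below 0 and the median was -0.27, against -0.0023 over all genes. Slc7a8 was at -0.75 (SE 0.462, 95% interval -1.71 to 0.21, adjusted p = 0.940 in edgeR), Slc15a1 at -0.71 (SE 0.498, 95% interval -1.75 to 0.32) and Slc36a1 at -0.67 (SE 0.457, 95% interval -1.62 to 0.27). Slc15a1 and Slc36a1 were lower in 5 of 6 matched animals and Slc7a8 in 4 of 6. Without CD M1, Slc36a1 was at -0.21. Without CD M3, HFD M2 and HFD F2, Slc15a1 was at -0.997. All 10 B cell markers were above 0 at an unadjusted p under 0.05 between these groups (median 2.19). All 7 adipocyte markers (median -1.60) and all 5 acinar cell markers tested (median -2.18) were below 0. The part of these markers in the transporters' values was not tested. Both metformin comparisons and both diet comparisons share groups, so that a low or high group enters 2 of them.

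The interaction asked whether the metformin difference was itself different on the 2 diets. No transporter passed the false discovery rate, and 1 of 10 had an unadjusted p under 0.05, against 6.03% of all genes (3.04% higher and 2.99% lower). This was again Slc1a5, with a log2 difference of 0.59 (SE 0.281, 95% interval 0.01 to 1.18, adjusted p = 0.799 in edgeR). It was 0.40 without CD M3, with an unadjusted p above 0.05, and it stayed under that threshold in 9 of the 24 fits that left out 1 animal. For Slc15a1 the interaction was -0.23 with a 95% interval of -1.68 to 1.23, so that the lower values under metformin on the 2 diets were not shown to differ. It turned to 0.50 without CD M3, HFD M2 and HFD F2. In the interaction all 9 smooth muscle markers tested (median 0.47), all 7 adipocyte markers (median 3.29) and 4 of 5 acinar cell markers tested (median 5.50) were above 0. All 10 B cell markers were below 0 (median -4.44). The part of these markers in the transporters' values was not tested.

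**Figure D2:**
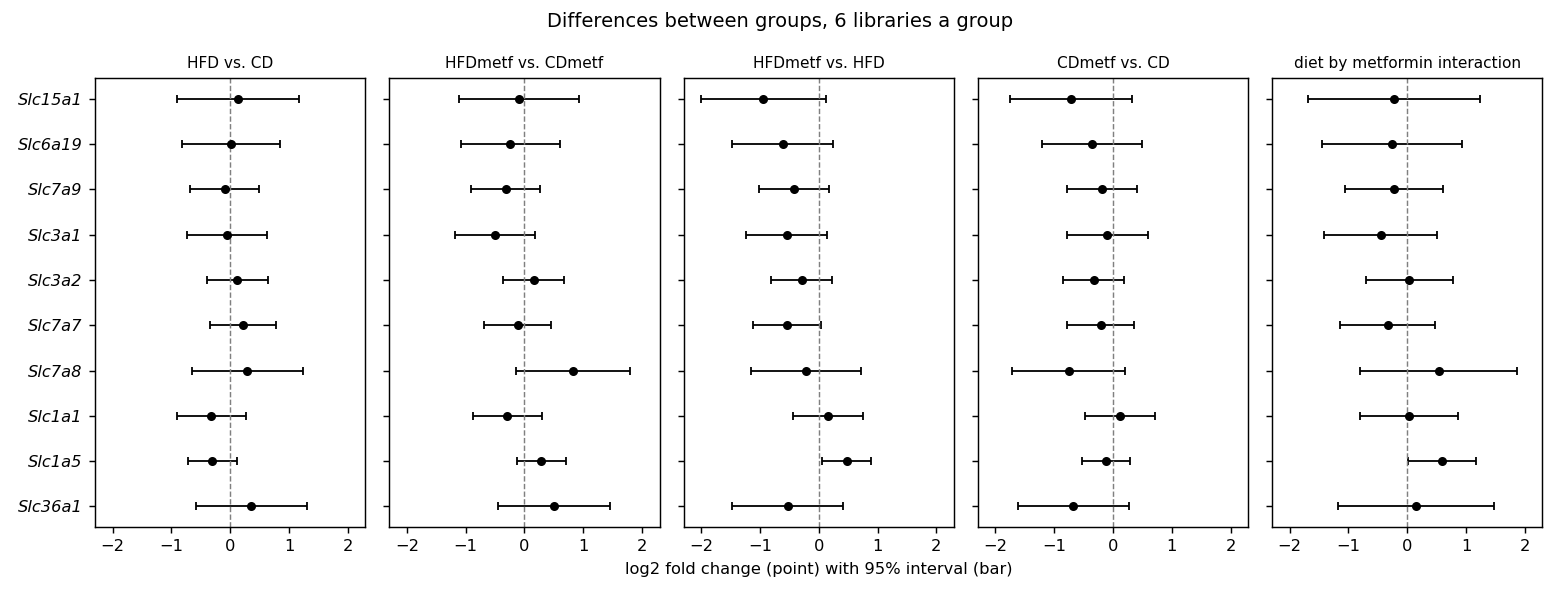
Log2 fold change (x, point) with its 95% interval (bar) of each transporter (y) in the 4 comparisons and the diet by metformin interaction. The intervals cross 0 except those of Slc1a5 in HFDmetf vs. HFD (0.06 to 0.89) and in the interaction (0.01 to 1.18), and 8 of 10 points in HFDmetf vs. HFD and 9 of 10 in CDmetf vs. CD lie below 0.

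Sex was tested only as a change in the diet and metformin differences, not as a difference in level. For no transporter did such a difference vary between labelled males and females at an unadjusted p under 0.05 in the model with sex by group. The share of 14402 genes for which it did was 2.11% for the diet without metformin and 5.28% for the diet with it. It was 3.33% for metformin on the high-fat diet and 5.21% for metformin on the control diet. Slc7a8 came closest, with a difference between HFDmetf and CDmetf that was 1.81 larger in males on the log2 scale (SE 0.869, adjusted p = 0.938 in edgeR). Without HFD M2 and HFD F2 it was 1.87 (SE 0.881, adjusted p = 0.867 in edgeR), with an unadjusted p under 0.05.

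The transporters varied together between animals. Among 8 of them, all but Slc1a1 and Slc1a5, all 28 pairwise Spearman correlations over the 24 libraries were above 0 (0.283 to 0.917, median 0.727). After each gene was centred on its group mean they ran from 0.332 to 0.940 (median 0.771), and without the 2 libraries of lowest mean transporter level, HFDmetf F2 and HFDmetf M1, from 0.173 to 0.909 (median 0.656). The libraries share 1 scaling, their depth and marker sums differ, and these values are descriptions.

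Within that shared variation, 2 sets were picked from these same correlations, and they were not separate. Slc15a1, Slc6a19, Slc3a1 and Slc7a9, which act at the brush border, were correlated with each other at 0.723 to 0.903. Slc1a1, also a brush border carrier, was correlated with these 4 at -0.292 to 0.112. Slc3a2, Slc7a8 and Slc36a1 were correlated at 0.870 to 0.917, and Slc7a9 with Slc7a8 at only 0.283. Slc15a1 was correlated with members of both sets, at 0.866 with Slc3a2. Slc7a7, placed in neither set, was also correlated with both, at 0.840 with Slc3a2 and 0.792 with Slc15a1. Slc1a1 ran against Slc7a8 (-0.718) and Slc36a1 (-0.651), and Slc1a5 ran against every transporter but Slc1a1, down to -0.677 with Slc15a1.

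The second set followed the markers of the proximal intestine. Over the 24 libraries the proximal sum had a Spearman's rho of 0.907 with Slc7a8, 0.887 with Slc36a1, 0.883 with Slc3a2, 0.788 with Slc7a7 and 0.709 with Slc15a1, but 0.278 with Slc7a9. Slc1a1 went the other way, at -0.690 with the proximal and 0.742 with the ileal sum. After centring on group means the values were 0.917 for Slc7a8 with the proximal sum and 0.762 for Slc1a1 with the ileal sum. HFD M3, the library with the highest proximal and lowest ileal sum, had the lowest Slc1a1 (20.8 CPM) and the highest values of HFD for Slc7a8 (397 CPM) and Slc36a1 (210 CPM).

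The epithelial sum and the summed level of 15 peptidases, which cut peptides at the brush border and inside the cell, were followed to differing degrees. With the peptidases, rho was 0.827 for Slc7a9, 0.709 for Slc3a1, 0.702 for Slc6a19, 0.670 for Slc15a1 and 0.638 for Slc7a7. With the epithelial sum it was 0.757 for Slc3a1, 0.703 for Slc7a7, 0.645 for Slc7a9, 0.605 for Slc15a1 and 0.599 for Slc6a19. Slc1a5 had 0.774 with the smooth muscle sum and 0.734 with the sum of 7 adipocyte markers, and -0.523 with the epithelial sum.

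**Figure D3:**
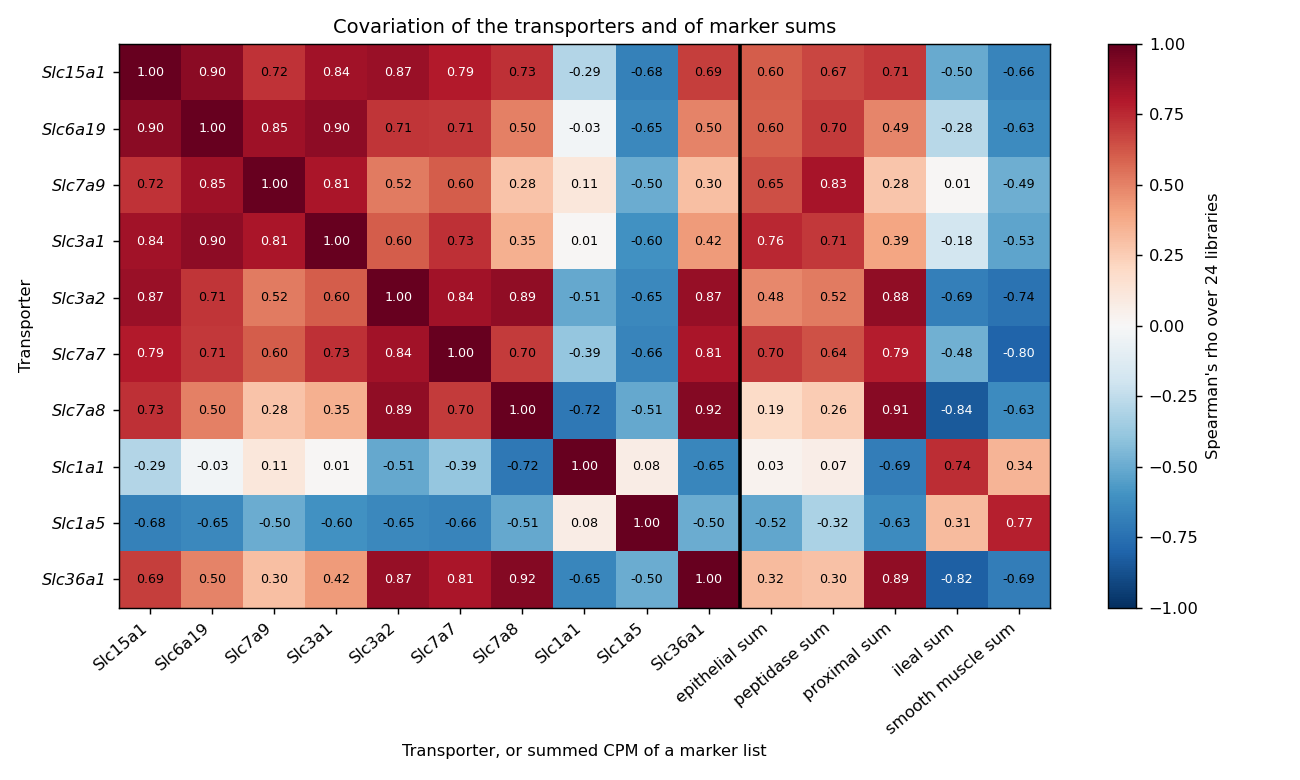
Spearman's rho over 24 libraries between the transporters (rows) and the transporters or the summed CPM of marker lists (columns), from blue (-1) to red (1). Slc7a8 and Slc36a1 follow the proximal sum (0.907 and 0.887), Slc1a1 the ileal sum (0.742) and Slc1a5 the smooth muscle sum (0.774).

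**Figure D4:**
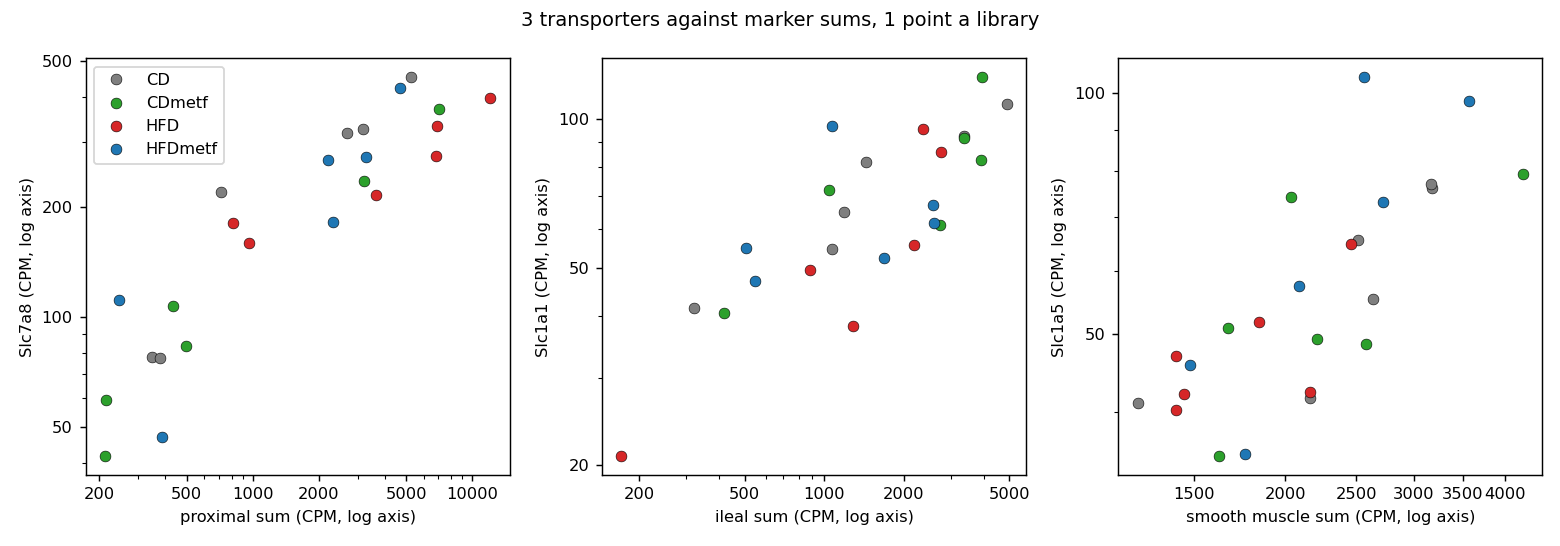
CPM on log axes of Slc7a8 (y) against the proximal sum (x), of Slc1a1 against the ileal sum and of Slc1a5 against the smooth muscle sum, with 1 point per library coloured by group. Libraries of every group lie along each trend, with a rho of 0.907, 0.742 and 0.774.

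The 5 genes outside the list whose levels followed the mean of the 10 transporters most closely, among 8906 genes with a median of at least 10 CPM, were Vil1 (Spearman's rho 0.943 over 24 libraries), Mtmr4 (0.927), Slc16a10 (0.921), Phlpp2 (0.920) and Pepd (0.915). Vil1 encodes villin, a bundling protein of microvilli, Slc16a10 a basolateral carrier of aromatic amino acids and Pepd a cytosolic dipeptidase that releases proline. Mtmr4 and Phlpp2 encode phosphatases. Vil1 is also one of the epithelial markers and Pepd one of the peptidases described here.

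Of 32 other amino acid and peptide transporters, 26 were tested and none passed the false discovery rate in any comparison. At an unadjusted p under 0.05, Slc15a3 was higher and Slc6a14 lower in HFD vs. CD, Slc6a9 was higher in HFDmetf vs. CDmetf, Slc7a10 was higher in HFDmetf vs. HFD, Slc15a3 was higher in CDmetf vs. CD, and Slc6a9 and Slc7a10 were higher in the interaction. These are 1 or 2 of 26 genes per comparison, near the share over all genes (4.63, 7.87, 6.61, 5.14 and 6.03% in the same order). Their median log2 fold change in HFDmetf vs. HFD was 0.19, with 19 of 26 above 0, while that of the 10 described here was -0.48. The 26 differed widely in level, with medians over all libraries from 0.180 CPM (Slc7a10) to 799 CPM. Among the 7 below 0 were Slc16a10 at -0.64 (SE 0.400, median 147 CPM) and Slc6a20a at -0.28 (SE 0.209, median 144 CPM). Slc15a3, a peptide and histidine carrier of endolysosomes, was at 1.57 to 9.87 CPM over all libraries. Slc6a14, a carrier of neutral and basic amino acids, was at 77.4 CPM in CD F2, while the remaining CD mice had at most 1.06 CPM and the HFD mice at most 0.658 CPM, so that its difference of -5.05 (SE 2.26) in HFD vs. CD rested on 1 library.

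Of the 15 peptidases 13 were tested, and none passed the false discovery rate. In HFDmetf vs. HFD all 13 were below 0 (median -0.51), while 53.9% of all genes were above 0 (median 0.026). In CDmetf vs. CD 11 peptidases were below 0 (median -0.17), while 49.6% of all genes were above 0 (median -0.0023). Ggt1, which splits gamma-glutamyl peptides such as glutathione, was at -0.78 in HFDmetf vs. HFD (SE 0.363, adjusted p = 0.640 in edgeR), with means of 450 CPM in HFD and 272 CPM in HFDmetf. Among 8 partner proteins and pumps, 7 were tested, and 6 were below 0 in HFDmetf vs. HFD (median -0.52). Slc9a3r2, a scaffold of brush border carriers, was at 0.64 (SE 0.266, adjusted p = 0.640 in edgeR).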

How the data were processed

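RNA from the distal small intestine of 24 mice was depleted of ribosomal RNA and sequenced with 1 library per animal. Reads were trimmed with Trimmomatic 0.39 and mapped with STAR 2.5.3a to GRCm38, and the authors deposited raw read counts per gene (which annotation and strand setting were used in counting is not given in the sources used here). The table's 4 rows that name no gene (35.5 to 75.7% of all reads) stayed out of totals and tests. All 24 columns were matched to animals by their labels (0 columns of other samples). The transporters, gene lists and tests were chosen with earlier results of these data known. Counts were filtered with filterByExpr (14076 of 55536 genes kept), normalized with TMM and tested with edgeR 4.0.16 in R 4.3.3 (quasi-likelihood, terms for group, sex and replicate number, 17 residual degrees of freedom), with Benjamini-Hochberg adjustment over all genes tested and a threshold of 0.05. The procedure was also run on simulated data in which genes varied independently, unlike the shared variation seen in these libraries, and its outcome is not given here. limma 3.58.1 and DESeq2 1.42.0 were alternatives. Replicate numbers were kept as a term because the study's methods fit a block, though the labels do not name the numbers as blocks. Libraries of the same sex and number deviated together with a mean correlation of 0.168 over 36 pairs, and only 23 of these were above 0.1, so the pairing is not established by the data. Summed levels of marker genes and, as covariates, mean z-scores of log2 CPM were used. The lists of dividing and stem cell markers were added after values were seen. From other gene lists up to 3 genes per comparison with the smallest p were eligible to be named, plus Slc6a20a. One gene of the partner list is not reported here. Exon lengths and positions were taken from GENCODE M21 (GRCm38) and promoters from RefSeq (GRCm38.p6). Animals were separate mice. Intervals of fold changes cover the spread between animals.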

Additional observations from a re-analysis of the deposited data

Results flagged for a closer look

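Each of the 40 combinations of a transporter and a group of 6 libraries was tested for a single library far from the others with Dixon's ratio at its 95% critical value, and chance alone flags about 1 in 20 groups, or 2 of 40. Slc3a1 in CD M3 was at 73.7 CPM, below the other CD libraries at 215 to 281 CPM. Slc36a1 in CD M1 was at 246 CPM, above the other CD libraries at 39.9 to 85.4 CPM. Slc36a1 in CDmetf F1 was at 132 CPM, above the other CDmetf libraries at 28.2 to 64.7 CPM. CD M3 was also the library with 85.4% of its reads on 10 genes, CD M1 had the lowest ileal sum of its group (323 CPM) and the highest proximal sum (5278 CPM), and CDmetf F1 had the lowest ileal sum (417 CPM) and the highest proximal sum (7013 CPM) of its group. The part of these in the flagged values was not tested.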

How the results depend on the processing

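None of the 10 transporters passed a false discovery rate of 0.05 in any of the 5 comparisons under the 18 alternatives (17 for the interaction) or without any single animal of 24. What moved was the number at an unadjusted p under 0.05 and the sign of small differences, and the cause was not tested. In HFDmetf vs. HFD that number was 1 in the reported fit, 5 with limma-voom, 3 with DESeq2 or with no filter on low counts, 4 without CD M3 and 2 with an adipocyte score as a covariate. It was 0 with only the 12 libraries compared, with an epithelial, smooth muscle, proximal or dividing cell score as a covariate, without HFD M2 and HFD F2, and without these and CD M3. The share of all genes at that threshold was 6.61% in the reported fit, 8.1% with limma-voom, 7.98% with DESeq2 and 4.81% with no filter. It was 8.98% without CD M3 and 5.36% with the adipocyte score. Where the number was 0, the share was 3.95% with only the 12 libraries. With the scores it was 3.53, 1.51, 3.28 and 2.07% in that order. It was 2.26% without HFD M2 and HFD F2 and 3.07% without these and CD M3. In the interaction the number of transporters was 1 in the reported fit and 0 with limma-voom, no filter, no sex term, an epithelial, ileal or dividing cell score, without CD M3, without HFD M2 and HFD F2, and without all 3, while with a smooth muscle score it was 1 but for Slc7a8 in place of Slc1a5. The share of all genes was 6.03% in the reported fit and 4.28 to 6.8% in these alternatives. In CDmetf vs. CD the number was 0 in the reported fit, 3 with a smooth muscle score, and 1 with a proximal score, with only the 12 libraries compared or without all 3 libraries. The share of all genes was 5.14% in the reported fit, 8.02% with the smooth muscle score and 5.54% with the proximal score. It was 6.39% with only the 12 libraries and 6.99% without all 3. In HFDmetf vs. CDmetf the number was 0 in the reported fit, 1 with a smooth muscle score and 2 with a proximal score. The shares of all genes were 7.87, 9.52 and 12.8% in that order. Without the replicate block the number of transporters was 0 in the interaction and unchanged in the other 4 comparisons, and the number of all genes at that threshold in HFDmetf vs. HFD was 760 of 13781. The labels do not say that the replicate numbers pair the animals. The proximal, dividing cell and adipocyte scores were added after the data were seen, and the filter on low counts followed each design.

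The values after a change of sign are log2 differences. With limma-voom signs changed in HFD vs. CD (Slc7a9 0.022, Slc3a1 0.13), CDmetf vs. CD (Slc3a1 0.035), the interaction (Slc3a2 -0.14). With no filter on low counts signs changed in the interaction (Slc3a2 -0.032, Slc1a1 -0.056). With the epithelial score signs changed in HFD vs. CD (Slc3a1 0.094), HFDmetf vs. CDmetf (Slc15a1 0.38, Slc6a19 0.14, Slc7a7 0.21), the interaction (Slc15a1 0.12). With the smooth muscle score signs changed in HFD vs. CD (Slc15a1 -0.35, Slc6a19 -0.31, Slc3a2 -0.20, Slc7a7 -0.15, Slc7a8 -0.33, Slc36a1 -0.33), HFDmetf vs. HFD (Slc7a8 0.25, Slc36a1 0.16), the interaction (Slc15a1 0.14, Slc7a7 0.036, Slc1a1 -0.11). With the ileal score signs changed in HFD vs. CD (Slc7a9 0.0052, Slc3a1 0.0017, Slc36a1 -0.0049), HFDmetf vs. CDmetf (Slc1a1 0.080), CDmetf vs. CD (Slc1a1 -0.061), the interaction (Slc3a2 -0.025). Without CD M3 signs changed in HFD vs. CD (Slc15a1 -0.091, Slc6a19 -0.22), CDmetf vs. CD (Slc1a5 0.042). Without HFD M2 and HFD F2 signs changed in HFD vs. CD (Slc15a1 -0.32, Slc6a19 -0.15), HFDmetf vs. HFD (Slc7a8 0.0097), the interaction (Slc15a1 0.22). Without CD M3, HFD M2 and HFD F2 signs changed in HFD vs. CD (Slc15a1 -0.60, Slc6a19 -0.43, Slc3a2 -0.10, Slc7a7 -0.16), HFDmetf vs. HFD (Slc7a8 0.0082), CDmetf vs. CD (Slc1a5 0.063), the interaction (Slc15a1 0.50, Slc6a19 0.19, Slc7a9 0.17, Slc7a7 0.033). With the proximal score signs changed in HFD vs. CD (Slc15a1 -0.32, Slc6a19 -0.22, Slc3a2 -0.15, Slc7a7 -0.036, Slc7a8 -0.32, Slc36a1 -0.21), HFDmetf vs. CDmetf (Slc3a2 -0.14), HFDmetf vs. HFD (Slc7a8 0.085), CDmetf vs. CD (Slc3a1 0.11, Slc7a7 0.0041, Slc1a1 -0.022). With the dividing cell score signs changed in CDmetf vs. CD (Slc3a1 0.11), the interaction (Slc1a1 -0.040). 

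Without single animals, the number at an unadjusted p under 0.05 ran from 0 to 1 in HFD vs. CD, HFDmetf vs. CDmetf, CDmetf vs. CD and the interaction, and from 0 to 4 in HFDmetf vs. HFD. Apart from the fit without CD M3, the share of all genes in these fits is not given here. These counts therefore cannot be set against a background. The 1 in HFD vs. CD came without CD M1 and that in CDmetf vs. CD without CDmetf F1, and that in HFDmetf vs. CDmetf without CDmetf F1, HFDmetf M1, HFDmetf M3 or HFDmetf F3. Log2 differences that changed sign without 1 animal ranged as follows: Slc3a1 HFD vs. CD -0.27 to 0.092, Slc3a2 interaction -0.16 to 0.19, Slc36a1 interaction -0.35 to 0.70, Slc7a9 HFD vs. CD -0.29 to 0.036, Slc3a1 CDmetf vs. CD -0.35 to 0.047, Slc1a1 interaction -0.17 to 0.22, Slc15a1 HFD vs. CD -0.091 to 0.34, Slc6a19 HFD vs. CD -0.22 to 0.22, Slc1a5 CDmetf vs. CD -0.25 to 0.042. The others ranged as follows: Slc1a1 CDmetf vs. CD -0.055 to 0.25, Slc7a7 HFDmetf vs. CDmetf -0.23 to 0.045, Slc15a1 HFDmetf vs. CDmetf -0.34 to 0.17, Slc36a1 HFD vs. CD -0.18 to 0.84, Slc1a1 HFDmetf vs. HFD -0.077 to 0.34, Slc7a8 HFDmetf vs. HFD -0.74 to 0.031, Slc15a1 interaction -0.46 to 0.038, Slc3a2 HFDmetf vs. CDmetf -0.00071 to 0.32.

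With 6 animals per group, 95% intervals reached 0.41 to 1.06 to either side of a difference on the log2 scale (0.58 to 1.46 in the interaction). Differences smaller than their own interval width to either side could not be told from 0. Larger ones could still miss the false discovery rate, as did Slc1a5 in HFDmetf vs. HFD (0.48, adjusted p = 0.640 in edgeR). Reads on genes differed between libraries from 1829690 to 40606442.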
